A study of Mus musculus with 63 samples.

Results

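PDGFR-β+ cells and endothelial cells (ECs) sorted from the same obstructed kidneys were compared 7 days after unilateral ureteric obstruction (UUO-7), over every miRNA locus counted. The comparison uses the 3 PDGFR-β+ libraries (mice 2, 4 and 5) and the 4 EC libraries (mice 2, 3, 4 and 5) of UUO-7, which are 7 of the 63 single-population libraries of the series. Mouse 3 has no PDGFR-β+ library because the authors removed it as an outlier of their principal component analysis, so 3 mice give a pair. The other libraries are Macs (CD45+ F4/80hi) and LTL+ proximal tubule (PT) cells of the same mice, and all 4 populations from sham mice, from mice obstructed for 2 days (UUO-2) and from mice in which 7 days of obstruction were followed by 14 days of reversal (R-UUO).

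All mice were male C57BL/6 animals of 8 to 12 weeks, with no genetic change named in the labels. In every obstructed group the ureter was ligated, and the controls were sham-operated. Kidneys were digested and sorted, ECs as CD45– CD31+ cells and PDGFR-β+ cells as CD45– CD31– cells that bear PDGFR-β, a receptor of pericytes, vascular smooth muscle cells and fibroblasts. The second gate therefore holds several stromal cell types, and its make-up may differ between conditions. In a sorted pool, a low level in every cell and a high level in a few cells cannot be told apart.

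A miRNA is cut from a hairpin precursor that gives a 5p and a 3p arm, and it binds target mRNAs mainly through its seed, bases 2 to 8 of the mature RNA. Members of a seed family can therefore share targets even where they come from different genes. In the vessel wall, miR-126 is the classical endothelial miRNA and lies in Egfl7, a gene of ECs. The cluster of miR-143 and miR-145 is known from smooth muscle and pericytes, and miR-199a and miR-214 come from Dnm3os, a long noncoding RNA of mesenchymal cells.

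The mature sequences that carry the main differences are shown here in RNA letters, 5′ to 3′, with the seed in capitals. They are taken from RefSeq (GRCm38.p6), which gave a sequence for 394 of the 442 loci tested. The first 6 were higher in PDGFR-β+ cells and the next 5 in ECs.
miR-199a-5p: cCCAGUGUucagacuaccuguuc
miR-199a-3p: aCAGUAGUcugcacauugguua
miR-214-3p: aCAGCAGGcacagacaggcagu
miR-148a-3p: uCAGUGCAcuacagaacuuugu
miR-34b-5p: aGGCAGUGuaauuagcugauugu
miR-125b-1-3p: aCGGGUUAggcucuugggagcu
miR-126a-3p: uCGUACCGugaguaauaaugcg
miR-139-5p: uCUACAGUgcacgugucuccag
miR-335-5p: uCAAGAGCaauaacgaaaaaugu
miR-322-5p: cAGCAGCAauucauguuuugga
miR-672-5p: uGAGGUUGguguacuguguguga

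Of 2110 loci in the table, 963 had no count in the 7 libraries, 705 had counts under the low-count filter, and 442 were tested. The tested loci held 99.98% of the counts. Levels are CPM, read counts relative to the total of their library, after TMM scaling over these 7 libraries. A log2 fold change is always PDGFR-β+ cells over ECs, with its standard error (SE). The SE was back-calculated, as the absolute log2 fold change divided by the square root of the F statistic of its test. It is approximate, most of all where counts are near 0. Adjusted p-values come from edgeR's quasi-likelihood test with Benjamini-Hochberg adjustment over all loci tested. A locus is called higher or lower at an adjusted p under 0.05 and a fold change over 1.5. Total counts ranged from 4813388 to 9684164 in ECs and from 1905053 to 4346685 in PDGFR-β+ cells, where mouse 5 was the shallowest. A count of 3 corresponds to 0.41 to 1.08 CPM, so levels near 1 CPM rest on very few reads.

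At UUO-7, 149 loci (33.7% of those tested) were higher in PDGFR-β+ cells and 112 (25.3%) were higher in ECs. The libraries of the 2 cell types did not overlap at 289 loci (65.4%). The median log2 fold change over all loci was 0.0869. Of the 261 called loci, 253 had the same sign in all 3 mice with a pair. The calls were made on these same libraries, so this count is a description and not independent support. The balance of directions depends on scaling. With library size alone, the median moved to 0.953, and 245 loci were higher in PDGFR-β+ cells and 51 in ECs, which put 82.8% of the calls on the PDGFR-β+ side instead of 57.1%. A fit of all 63 libraries, which also changed the filter to 671 loci and the estimate of spread, gave a median of 0.398 and calls of 185 and 83, or 69% on that side. The list medians below are therefore best read against the median of all loci.

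**Figure D1:**
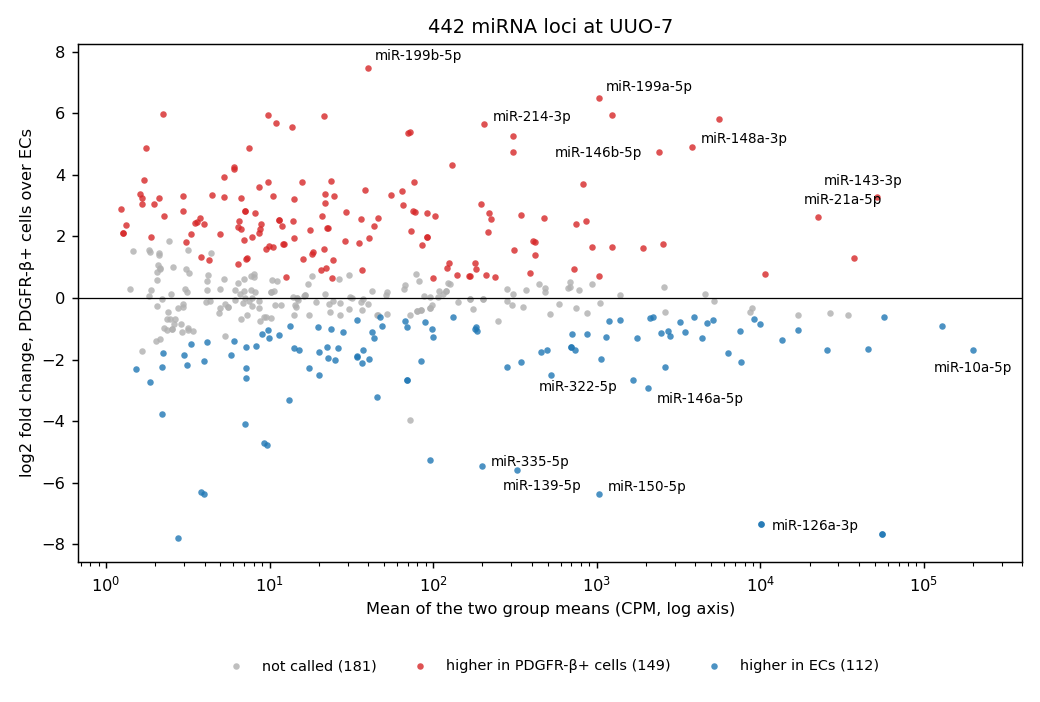
Each point is 1 of 442 miRNA loci at UUO-7, with the mean of the 2 group means in CPM on a log axis and the log2 fold change of PDGFR-β+ cells over ECs. Red points (149) were called higher in PDGFR-β+ cells, blue points (112) higher in ECs and grey points (181) were not called. miR-199b-5p (7.48) is the highest point, and the abundant miR-126a loci (-7.34 and -7.66) lie far below 0 at the right.

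The markers of each gate separated the libraries. miR-126a-3p had 18700, 18370, 22370 and 20760 CPM in the ECs of mice 2, 3, 4 and 5, and 180.7, 93.9 and 94.67 CPM in the PDGFR-β+ cells of mice 2, 4 and 5. Every EC library lay far above every PDGFR-β+ library, at a log2 fold change of -7.34 ± 0.31 (SE, adjusted p = 1.07e-08). The other arm, miR-126a-5p, was more abundant at 110611 ± 9141 CPM in ECs (SD, n = 4) and 544.8 ± 245 CPM in PDGFR-β+ cells (SD, n = 3), which is 203-fold. The loci miR-126b-3p and miR-126b-5p lie on the opposite strand of the same site and carry nearly the same counts. miR-126a-3p and miR-126b-5p are complementary over a run of 19 bases, and without the strand of the counting their reads cannot be told apart.

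The mural cluster was on the other side. miR-143-3p, known from contractile smooth muscle, had 7073, 6982, 14060 and 10980 CPM in ECs and 79390, 106100 and 97020 CPM in PDGFR-β+ cells. The groups did not overlap, and the log2 fold change was 3.27 ± 0.26 (adjusted p = 1.56e-06). All 4 loci of miR-143 and miR-145a were higher in PDGFR-β+ cells, beside 33.7% of all loci, with a median of 2.87 and a range of 2.57 to 3.27.

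The miR-199 and miR-214 loci had the highest median of the lists toward PDGFR-β+ cells, and all 8 of them were called, beside 33.7% of all loci, with a median log2 fold change of 5.88. The 8 are not separate sequences, since the 3 loci of miR-199a-3p and miR-199b-3p encode 1 mature sequence and both copies of miR-199a-5p encode another. miR-199a-3p at chr1:162217883-162217904, in an exon of Dnm3os, had 166.4, 199.6, 243.2 and 172.6 CPM in ECs and 10050, 12240 and 10520 CPM in PDGFR-β+ cells. It differed by 5.81 ± 0.18 (adjusted p = 1.52e-09). The 3 loci that encode this same mature sequence cannot be told apart by their reads, and the chromosome 1 locus held 83.2% of their summed level in ECs and 81.7% in PDGFR-β+ cells.

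miR-199a-5p at chr1:162217844-162217866 had 18.81, 17.77, 28.26 and 24.17 CPM in ECs and 1887, 2293 and 1900 CPM in PDGFR-β+ cells, a 90.5-fold difference (6.50 ± 0.21, adjusted p = 1.82e-09). miR-214-3p, from the same transcript, had 3.96 to 15.05 CPM in ECs and 356.9 to 463.7 CPM in PDGFR-β+ cells (5.64 ± 0.40). miR-199b-5p, whose hairpin lies in an intron of Dnm1, had the largest log2 fold change of these loci (7.48 ± 0.57). Its level in ECs was 0, 0.9871, 0 and 0.6827 CPM, against 88.77, 66.01 and 82.84 CPM in PDGFR-β+ cells, so the size of that fold rests on 9 reads of ECs. The second copy of miR-199a-5p, at chr9:21496537-21496559, had 1 read in 1 EC library and 3.586 to 6.019 CPM in PDGFR-β+ cells, and no fold is given for it.

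Markers of cells outside the 2 gates were also read, here as summed CPM scaled over all 63 libraries. The 8 tubule markers summed to 2190 to 3680 CPM in ECs and 2350 to 3600 CPM in PDGFR-β+ cells, against 43500 to 62100 CPM in PT cells. The 3 red cell markers summed to 90.9 to 151 and 98.3 to 112 CPM. The 5 leukocyte markers summed to 2130 to 2930 CPM in ECs, to 453 to 899 CPM in PDGFR-β+ cells and to 18900 to 21900 CPM in Macs, and none of any list was at 0 in all libraries of a group. In ECs the leukocyte sum was mostly miR-150-5p. The endothelial pair summed to 618 to 1590 CPM in PDGFR-β+ cells, much as in Macs (605 to 938) and PT cells (661 to 918). The 5 stromal markers summed to 8170 to 17400 CPM in ECs and 145000 to 174000 CPM in PDGFR-β+ cells. The part of these other cells in the results that follow was not tested.

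Beyond the markers, both arms of miR-148a and of miR-1247 were among the largest differences toward PDGFR-β+ cells. miR-148a-3p, known as a repressor of DNA methyltransferase mRNAs, had 245.3, 215.9, 268.9 and 256.3 CPM in ECs and 7980, 6601 and 7635 CPM in PDGFR-β+ cells (4.91 ± 0.14, adjusted p = 1.44e-09). Its rare arm miR-148a-5p had at most 1.092 CPM in ECs and 32.9 to 49.49 CPM in PDGFR-β+ cells (5.92 ± 0.47). Both arms were therefore far above the spread within a cell type.

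miR-1247-5p, which lies in an exon of Dio3os at the edge of the imprinted Dlk1-Dio3 domain, had 1.862 to 5.429 CPM in ECs and 95.84, 131.4 and 182.2 CPM in PDGFR-β+ cells (5.36 ± 0.37). Its other arm, miR-1247-3p, had 0 to 0.7329 CPM in ECs and 6.904, 17.86 and 32.63 CPM in PDGFR-β+ cells (5.94 ± 0.79). In both arms mouse 2 was the lowest PDGFR-β+ library and mouse 5 the highest. miR-125b-1-3p had 14.07 to 17.35 CPM in ECs and 453.7, 660.9 and 690 CPM in PDGFR-β+ cells (5.27 ± 0.20). The abundant arm of that hairpin, miR-125b-5p, differed by only 1.66 ± 0.14, but it is also encoded on chromosome 16.

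The miR-34 family, which is known as a target of p53, had 4 of 5 tested loci higher in PDGFR-β+ cells (median 3.38), beside 33.7% of all loci. miR-34c-5p had 15.3 to 28.13 CPM in ECs and 563.4 to 638 CPM in PDGFR-β+ cells (4.74 ± 0.24, adjusted p = 5.25e-08), and miR-34b-5p had at most 0.9871 CPM and 19.26 to 24.82 CPM (5.69 ± 0.56). Those loci share a cluster on chromosome 9. miR-34a-5p, encoded alone on chromosome 4, had overlapping libraries, with 4.153 to 9.285 CPM in ECs and 5.818 to 14.14 CPM in PDGFR-β+ cells, and was not called (0.78 ± 0.40, adjusted p = 0.114).

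**Figure D2:**
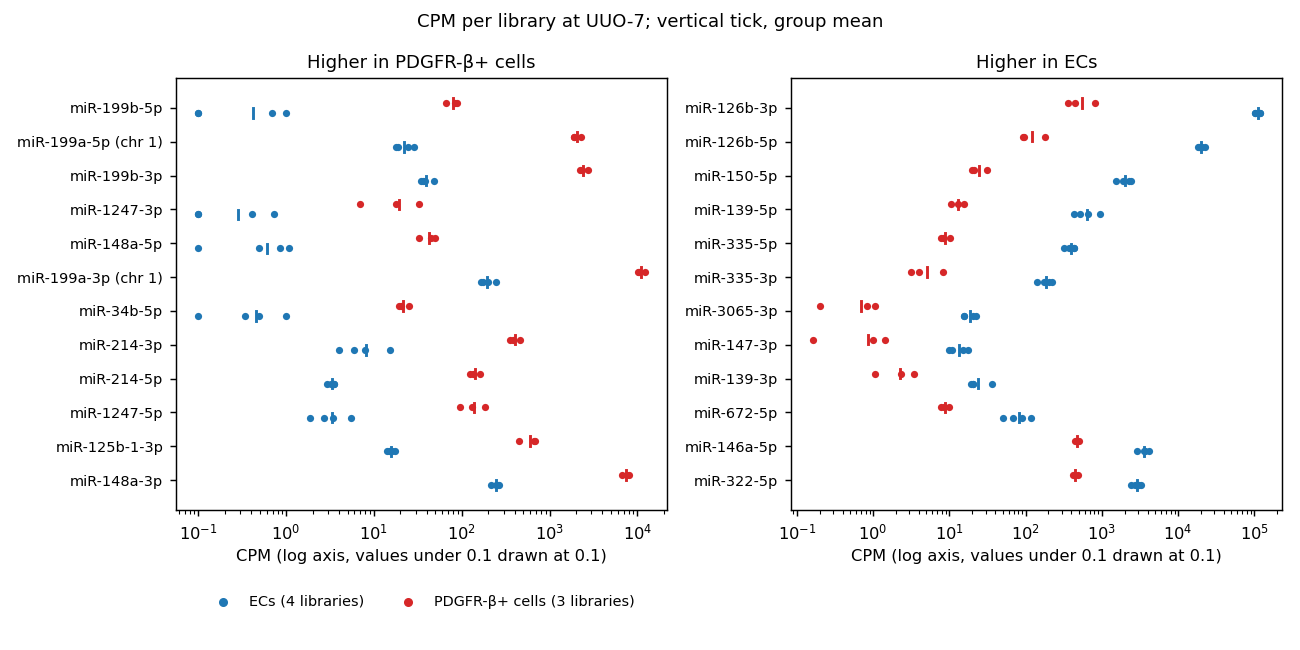
CPM of each UUO-7 library on a log axis for the 12 loci named in each direction, with ECs (4 libraries) in blue, PDGFR-β+ cells (3 libraries) in red and a vertical tick at the group mean. In every locus shown the 2 groups of libraries are apart, from 102600 or more against 824.4 or less CPM for miR-126b-3p to 1.092 or less against 32.9 or more CPM for miR-148a-5p, and values under 0.1 CPM are drawn at 0.1.

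Toward ECs, among the loci of at least 10 CPM, the largest differences after miR-126 were of miR-150, miR-139 and miR-335. miR-150-5p, a miRNA known from mature lymphocytes and also found in endothelium, had 2292, 2399, 1891 and 1531 CPM in ECs and 31.23, 21.27 and 20.08 CPM in PDGFR-β+ cells (-6.38 ± 0.26, adjusted p = 1.07e-08). Its rare arm miR-150-3p shared its direction, while the leukocyte markers miR-223-3p and miR-142a-3p did not. miR-223-3p, a miRNA of myeloid cells, had 6.108 to 9.149 CPM in ECs and 18.41, 25.88 and 109 CPM in PDGFR-β+ cells (2.81 ± 0.55), and miR-142a-3p, found across blood cell lineages, had 1.862 to 5.598 CPM in ECs and 12.16, 12.84 and 33.35 CPM in PDGFR-β+ cells (2.53 ± 0.48). In both, the PDGFR-β+ library of mouse 5 was the highest.

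miR-139-5p, from an intron of Pde2a, had 659.6, 949.6, 430.5 and 524.3 CPM in ECs and 15.78, 13.04 and 10.4 CPM in PDGFR-β+ cells (-5.60 ± 0.33, adjusted p = 1.79e-07). miR-335-5p, from an intron of the imprinted gene Mest, had 319.7 to 433.1 CPM in ECs and 7.889 to 10.36 CPM in PDGFR-β+ cells (-5.45 ± 0.22), and its 3p arm was lower by a like amount (-5.24 ± 0.37). The EC libraries of mice 2 and 3 were above those of mice 4 and 5 for miR-150-5p, miR-139-5p and miR-335-5p, yet all 4 were far from the PDGFR-β+ libraries.

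The other imprinted growth loci called were on the PDGFR-β+ side. miR-298-5p and miR-296-3p, which neighbour each other on chromosome 2, differed by 4.31 ± 0.29 and 3.22 ± 0.50. miR-298-5p had 9.039 to 18.76 CPM in ECs and 199.7 to 315.6 CPM in PDGFR-β+ cells. The list of imprinted growth loci thus had 2 loci higher in PDGFR-β+ cells and 2 higher in ECs of 5 tested, near the 33.7% and 25.3% of all loci.

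miR-147-3p and miR-672-5p were rarer and on the EC side. miR-147-3p, known from toll-like receptor signalling, had 10.02 to 17.34 CPM in ECs and 0.1644 to 1.434 CPM in PDGFR-β+ cells (-4.10 ± 0.55). miR-672-5p, X-linked at chrX:104116228-104116250 in an intron of Nexmif, had 90.88, 116.7, 49.92 and 68.41 CPM in ECs and 7.726, 8.427 and 10.04 CPM in PDGFR-β+ cells (-3.23 ± 0.33, adjusted p = 1.22e-05).

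A few miRNAs made up most of each library, as the 10 most abundant loci held 68.9% to 76.2% of its counts. The most abundant in ECs was miR-10a-5p, a miRNA of the HoxB cluster, with 350200, 259600, 307600 and 305000 CPM. It was at 111100, 93680 and 77250 CPM in PDGFR-β+ cells (-1.70 ± 0.18, adjusted p = 1.54e-05). miR-10b-5p of the HoxD cluster had 147000 to 194200 CPM in ECs and 75890 to 98630 CPM in PDGFR-β+ cells (-0.92 ± 0.16), a difference that was not called with library size alone (-0.06). miR-143-3p was as abundant as miR-10a-5p in PDGFR-β+ cells, at 94182 against 93995 CPM on average.

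miR-22-3p, from Mir22hg, was the next most abundant in PDGFR-β+ cells, with 52950, 53490 and 52880 CPM against 17990 to 25080 CPM in ECs (1.31 ± 0.15, adjusted p = 2.43e-05). miR-27b-3p, of a cluster known from angiogenesis, had 53510 to 84760 CPM in ECs and 19670 to 25370 CPM in PDGFR-β+ cells (-1.65 ± 0.20). let-7f-5p from chromosome X had 66140 to 72330 and 41860 to 48150 CPM (-0.62 ± 0.12). Its direction turned with library size alone (0.24), and the call was lost without the PDGFR-β+ library of mouse 4 (-0.55), without the EC library of mouse 5 (-0.58) or with all 63 libraries in the fit (-0.32).

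Among the families, the Hox miRNAs split by gene. miR-10a-5p and miR-10b-5p have the same seed and differ by the single substitution U12A (positions from the 5′ end, miR-10a-5p first), and both were higher in ECs.
miR-10a-5p: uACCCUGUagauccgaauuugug
miR-10b-5p: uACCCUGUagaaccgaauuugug
miR-196a-5p: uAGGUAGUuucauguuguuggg
The miR-196a-5p locus on chromosome 15 (chr15:102973365-102973386), in an intron of Hoxc5, had 94.43 to 158.3 CPM in ECs and 1397, 1799 and 1410 CPM in PDGFR-β+ cells (3.69 ± 0.21, adjusted p = 1.09e-07). miR-615-3p, which was chosen after its values were seen and lies in the same Hoxc5 annotation, had 8.603 to 12.34 CPM and 127.6 to 155.6 CPM (3.77 ± 0.21). The list of miR-10 and miR-196 held 4 loci higher in each cell type of 9 tested, beside 33.7% of all loci in PDGFR-β+ cells and 25.3% in ECs, with a median of -0.244, and with library size alone 4 in PDGFR-β+ cells and 1 in ECs.

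miR-146a-5p and miR-146b-5p, which repress mediators of NF-κB signalling, went in opposite directions although they share a seed. Their mature sequences differ at 2 positions outside it, by G18A and U21C, with the base of miR-146a-5p first.
miR-146a-5p: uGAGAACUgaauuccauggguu
miR-146b-5p: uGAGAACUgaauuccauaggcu
miR-146a-5p had 3730, 2908, 3624 and 4192 CPM in ECs and 445.8, 508.6 and 466.2 CPM in PDGFR-β+ cells (-2.93 ± 0.15, adjusted p = 7.86e-08). miR-146b-5p had 171.5, 164.8, 154.2 and 199.2 CPM in ECs and 4687, 3058 and 6156 CPM in PDGFR-β+ cells (4.75 ± 0.23, adjusted p = 3.79e-08). Thus each cell type held mainly a different copy of the seed, with no overlap of libraries at either locus.

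The list of miRNAs of inflammatory signalling, miR-146 included, was mostly on the PDGFR-β+ side, with 8 of 11 tested loci higher there and 2 higher in ECs (median 2.50), beside 33.7% and 25.3% of all loci. miR-21a-5p, the miRNA best known from kidney fibrosis, had 5320, 5797, 7001 and 7076 CPM in ECs and 33250, 41640 and 41670 CPM in PDGFR-β+ cells (2.62 ± 0.15, adjusted p = 1.45e-07). The neighbours miR-132-3p and miR-212-3p, which share a seed, differed by 2.13 ± 0.20 and 3.03 ± 0.30. miR-155-5p had 33.73 to 81.19 CPM in ECs and 82.85 to 129.1 CPM in PDGFR-β+ cells and was not called (0.79 ± 0.33, adjusted p = 0.0553), but with the mouse as a block it was called (1.05), while the call of miR-155-3p was lost (1.75). The leukocyte markers miR-142a-3p and miR-223-3p moved with these miRNAs, at the levels given above.

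Several broadly expressed families were read against the 25.3% of all loci that were higher in ECs and the 33.7% that were higher in PDGFR-β+ cells. Of 12 miR-30 loci, 9 were higher in ECs (median -1.01), or 3 in ECs and 2 in PDGFR-β+ cells with library size alone, among them miR-30a-5p with 33130 to 44630 CPM in ECs and 10740 to 14040 CPM in PDGFR-β+ cells (-1.70 ± 0.16). The clusters of miR-23, miR-27 and miR-24 had 7 of 10 tested loci higher in ECs (median -1.45), or 5 in ECs and 1 in PDGFR-β+ cells with library size alone, with miR-23b-3p at 1480 to 1819 and 378.3 to 454.7 CPM (-1.98 ± 0.14). Of 17 tested loci of miR-17-92 and its paralogs, 6 were higher in ECs (median -0.276), which is near the share of all loci, and with library size alone 3 were higher in ECs and 6 in PDGFR-β+ cells. Within that cluster miR-92a-3p differed by -1.79 ± 0.22, while miR-17-5p had 32.91 to 46.64 CPM in ECs and 27.78 to 43.54 CPM in PDGFR-β+ cells (-0.05 ± 0.23, adjusted p = 0.872).

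Of 23 tested loci of let-7 and miR-98, 9 were higher in ECs and 3 in PDGFR-β+ cells (median -0.496), beside 25.3% and 33.7% of all loci. With library size alone 9 were higher in PDGFR-β+ cells and 0 in ECs. Of the 3 higher in PDGFR-β+ cells under TMM scaling, let-7c-1-3p (1.98) and miR-98-3p (0.92) were not called with the mouse as a block (1.67 and 0.75). let-7i-5p was the exception among the abundant members, with 7017 to 8408 CPM in ECs and 12240 to 14390 CPM in PDGFR-β+ cells (0.79 ± 0.12). Of 6 tested miR-29 loci, known as repressors of collagen mRNAs, 2 were higher in ECs, beside 25.3% of all loci. miR-29a-3p had 1275 to 1749 CPM in ECs and 745.2 to 955.4 CPM in PDGFR-β+ cells (-0.76 ± 0.16), and this list had 0 loci higher in ECs and 2 higher in PDGFR-β+ cells with library size alone. The pair of miR-221 and miR-222 had no called locus in edgeR or DESeq2 among 4 tested, and 1 had an unadjusted p under 0.05, while with library size alone 3 were higher in PDGFR-β+ cells. The locus with that p, miR-222-3p (0.52), was called with the mouse as a block (0.67). Of the 4 red cell loci tested, 0 were called by edgeR, 0 by DESeq2 and 0 had an unadjusted p under 0.05. The 10 tubule loci tested had 2 higher in PDGFR-β+ cells and 1 in ECs (median 0.205), beside 33.7% and 25.3% of all loci. Those higher in PDGFR-β+ cells, miR-141-3p and miR-429-3p, lost the call with the mouse as a block (0.95 and 0.65). The tubule counts were 5 and 0 with library size alone. The 7 leukocyte loci had 4 higher in PDGFR-β+ cells and 2 in ECs (median 0.929), beside 33.7% and 25.3% of all loci. With library size alone the counts were 5 and 2.

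The list of miR-99, miR-100 and miR-125 had 5 loci higher in PDGFR-β+ cells and 3 in ECs of 11 tested (median 0.478), beside 33.7% and 25.3% of all loci, and with library size alone 8 and 0. Again relatives were apart. miR-100-5p had 115.1 to 152 CPM in ECs and 802.4 to 843.9 CPM in PDGFR-β+ cells (2.60 ± 0.15), and miR-125a-5p had 17030 to 21960 and 7072 to 7806 CPM (-1.37 ± 0.13). Of 10 tested miR-181 loci 3 were higher in PDGFR-β+ cells (median 0.362), about the 33.7% of all loci, and 8 with library size alone. miR-210-3p, known as a target of hypoxia-inducible factors, had 5.863 to 15.79 CPM in ECs and 21.16 to 30.9 CPM in PDGFR-β+ cells (1.50 ± 0.33, adjusted p = 0.00247). In the Sfmbt2 intron cluster 2 of 139 loci passed the filter and 1 was called higher in PDGFR-β+ cells, beside 33.7% of all loci. Both were called so with library size alone, and 4 of 7 tested with all 63 libraries in the fit.

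**Figure D3:**
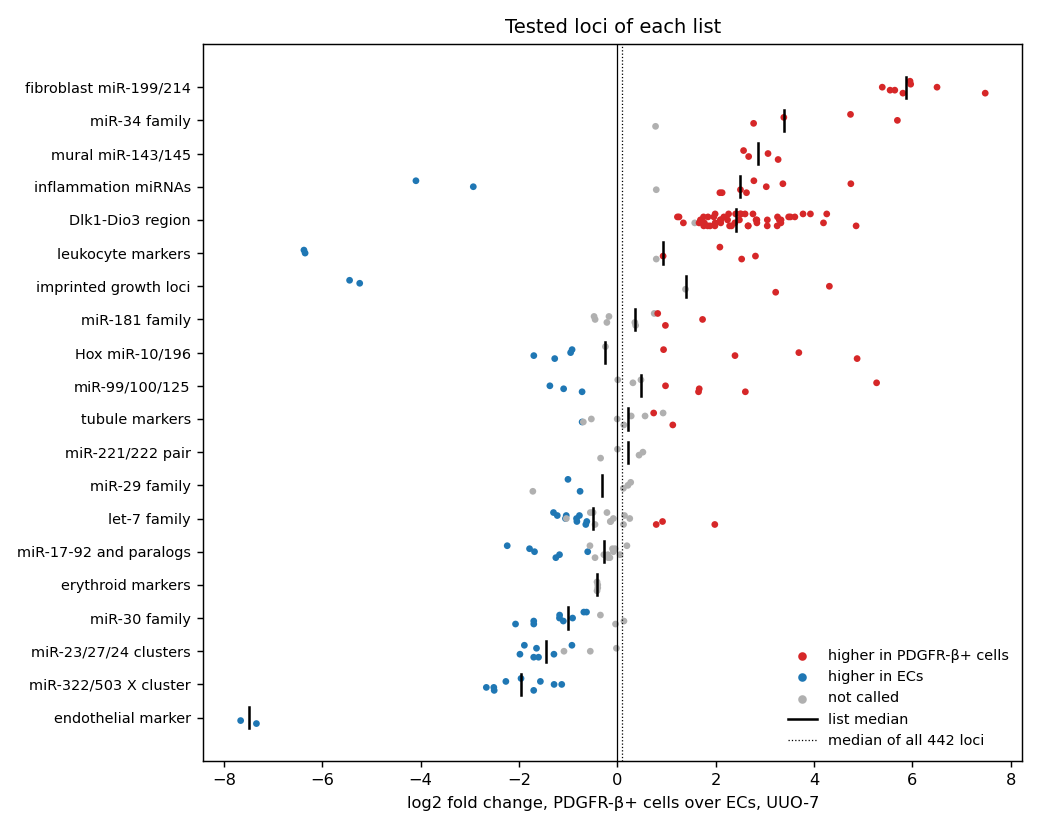
Log2 fold change of PDGFR-β+ cells over ECs at UUO-7 for the tested loci of each list, coloured by call, with a black tick at the list median and a dotted line at the median of all 442 loci (0.0869). The lists run from miR-199 with miR-214 (median 5.88) to the endothelial marker (median -7.50), and the leukocyte, Hox and miR-100 lists hold called loci on both sides.

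Seeds, arms and neighbours were compared over all loci tested, as a description without a test. Counting each mature sequence once, 37 seeds were shared by 2 or more tested sequences. In 23 of these families at least 2 members were called. The called members had a single direction in 16 families and both directions in 7, which included miR-146, let-7 and miR-125. Another of the 7 was the family of let-7b-3p. Its only member called higher in PDGFR-β+ cells, miR-98-3p (0.92), was not called with the mouse as a block (0.75). With library size alone 0 loci of the let-7 list and 0 of the list of miR-99, miR-100 and miR-125 were called higher in ECs by edgeR, so the split of let-7 and miR-125 depends on the scaling. In the family of miR-15 and miR-16, for example, miR-322-5p was lower in PDGFR-β+ cells (-2.67 ± 0.15) while miR-497a-5p was higher (1.39 ± 0.14).

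Of 115 hairpins with both arms tested, 50 had both arms called, and the arms went the same way in 48. The exceptions, named after their values were seen, were miR-877 and let-7c-1. The 48 include hairpins on opposite strands of the same site with nearly the same counts, such as miR-337 with miR-3544 and miR-136 with miR-3071. miR-877-5p, cut from a short intron of Abcf1, was higher in PDGFR-β+ cells (1.79 ± 0.39) and miR-877-3p was lower (-2.17 ± 0.66), so that the 3p arm was 24.6% of the 2 arms in ECs and 2.02% in PDGFR-β+ cells. The rare arm let-7c-1-3p had 0 to 1.354 CPM in ECs and 2.608 to 3.945 CPM in PDGFR-β+ cells (1.98), while let-7c-5p on chromosome 16 was lower in PDGFR-β+ cells (-1.04). miR-877-3p, at 0.6019 to 7.65 CPM, and let-7c-1-3p were not called with the mouse as a block (-1.89 and 1.67), so neither hairpin then had both arms called. Of 41 groups of neighbouring loci, at gaps of at most 10000 bases, 24 had 2 or more called loci, and 21 of those had a single direction.

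The list with the most loci tested is the Dlk1-Dio3 region on chromosome 12, an imprinted domain whose miRNAs are expressed from the maternal copy together with Meg3, Rian and Mirg. Of its 116 loci, between 109544588 and 109747949, 19 had no count in the 7 libraries and 51 were tested. The rest were under the low-count filter. Of the 51 tested, 50 were higher in PDGFR-β+ cells, which sets 50 of 51 beside 33.7% of all loci tested. Some members passed the filter through PDGFR-β+ cells alone and could hardly be called higher in ECs. For example, miR-666-5p had 1, 3, 3 and 6 reads in ECs and 50, 54 and 43 in PDGFR-β+ cells. The count of called loci is therefore a description. The 51 include 5 pairs on opposite strands of a site with nearly the same counts, and with each pair counted once 45 of 46 were higher. Their median log2 fold change was 2.40, with a range of 1.22 to 4.85, and the libraries did not overlap at 44 of the 51 loci, beside 65.4% of all loci. The count was 42 without the PDGFR-β+ library of mouse 5 and 60 without that of mouse 4, when more loci passed the filter.

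The region's members lay in 2 stretches. Before the gap in the middle, all 20 tested loci were higher in PDGFR-β+ cells (median 2.17), and after it 30 of 31 were (median 2.60). With the mouse as a block, miR-337-3p and miR-3544-5p (1.83 each) of the first stretch were not called. Nor were miR-379-5p (1.28), miR-411-3p (1.35), miR-376c-3p (1.02) and miR-409-5p (2.24) of the second. miR-127-3p, which lies antisense to Rtl1 in the first stretch, had 705.8, 1049, 1765 and 1118 CPM in ECs and 4223, 2267 and 5352 CPM in PDGFR-β+ cells (1.77 ± 0.32, adjusted p = 0.000767). miR-541-5p, in an intron of Mirg, had 178.8, 204.3, 327.8 and 233.4 CPM in ECs and 1169, 605.7 and 1977 CPM in PDGFR-β+ cells (2.40 ± 0.35). In both the PDGFR-β+ library of mouse 4 was the lowest and that of mouse 5 the highest. miR-370-3p in an intron of Rian had the same order, at 9.041, 3.812 and 21.87 CPM against at most 1.015 CPM in ECs (4.26 ± 0.68).

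The PDGFR-β+ library of mouse 5 was also the highest in the leukocyte markers miR-223-3p and miR-142a-3p. For the leukocyte marker miR-150-5p it was the lowest, at 20.08 CPM beside 31.23 and 21.27 CPM in mice 2 and 4. The part of leukocytes in the level of this region was not tested.

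The X-linked cluster of miR-322, miR-503, miR-351, miR-542 and miR-450 was the opposite case. All 9 tested loci, of 14, were higher in ECs, beside 25.3% of all loci tested, with a median of -1.96 and a range of -2.67 to -1.13. With library size alone 6 of the 9 were called. miR-322-5p, a member of the miR-15 seed family known from muscle differentiation, had 3032, 2700, 2444 and 3290 CPM in ECs and 449.9, 490.6 and 413.5 CPM in PDGFR-β+ cells (-2.67 ± 0.15, adjusted p = 1.09e-07). miR-351-5p was the most abundant of the cluster, at 3166, 3395, 3170 and 3827 CPM in ECs and 1374, 1648 and 1614 CPM in PDGFR-β+ cells (-1.13 ± 0.13). The spread within each group was small against the distance between them at both loci.

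miR-338-3p, from an intron of Aatk, and miR-3065-5p, on the opposite strand of the same site, had identical counts and cannot be told apart. They are complementary over a run of 21 bases, shown here because both names carry the same counts.
miR-338-3p: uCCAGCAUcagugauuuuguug
miR-3065-5p: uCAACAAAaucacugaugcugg
The level was 129.2, 78.72, 142.7 and 127.3 CPM in ECs and 14.63, 28.09 and 13.63 CPM in PDGFR-β+ cells (-2.66 ± 0.33, adjusted p = 4.60e-05). The other arms at this site were also alike in counts. miR-3065-3p had 15.57 to 22.51 CPM in ECs and 0.2006 to 1.076 CPM in PDGFR-β+ cells (-4.76 ± 0.45), and miR-338-5p had nearly the same counts.

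Whether these differences are those of UUO-7 or also hold in the other conditions was asked in a fit of all 31 EC and PDGFR-β+ libraries, over 537 loci. In this fit the contrast of interest is the log2 difference between PDGFR-β+ cells and ECs at UUO-7 minus the same difference in another condition, here called the shift. CPM in this and the next paragraphs are scaled over these 31 libraries. Against sham, the shift was above 0 at 112 loci (20.9%) and below 0 at 60 (11.2%). Against UUO-2 it was above 0 at 58 (10.8%) and below 0 at 45 (8.38%). Against R-UUO it was above 0 at 2 (0.372%) and below 0 at 11 (2.05%). The median shift from sham over all loci was 0.271, and 1.09 with library size alone, where 213 loci were above 0 and 20 below. With all 63 libraries in the fit the shifts were 150 and 33 from sham.

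The comparison with R-UUO moved most with a single library, that of PDGFR-β+ cells of mouse 1. It stood apart from the other 3 of its group in the Dlk1-Dio3 region and the X cluster, where its levels were nearest to those of UUO-7. The labels place it in R-UUO, and whether it belongs there or its obstruction was reversed like the others was not tested. The counts of shifts from R-UUO are therefore given with and without it. It was singled out by its levels in these lists, so the counts without it there follow partly from that choice. Without the PDGFR-β+ library of R-UUO mouse 1, the shift from R-UUO was above 0 at 59 loci and below 0 at 46. Leaving out any of 14 of the 31 libraries moved the first count by over 1.5 times, and it was 0 without the EC library of R-UUO mouse 2 or 5, the PDGFR-β+ library of R-UUO mouse 2, 4 or 5, or the PDGFR-β+ library of UUO-7 mouse 5. The shift above 0 was called at 0 loci with the mouse as a block, at 9 by DESeq2 and at 8 by the likelihood ratio test of edgeR, and 52 loci above 0 and 64 below had an unadjusted p under 0.05 in the quasi-likelihood test.

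The Dlk1-Dio3 region had the largest shifts from sham. Of 60 loci of the region tested in this fit, 58 had a shift above 0 from sham (median 5.61), or 52 of 54 with opposite strands counted once. The shift was above 0 at 32 from UUO-2 (median 3.67) and at 2 from R-UUO (median 2.39). Over all loci the shares above 0 were 20.9%, 10.8% and 0.372%. The median log2 difference of PDGFR-β+ cells over ECs was 2.58 at UUO-7, against -2.85 in sham, -1.14 at UUO-2 and 0.0791 in R-UUO, and 44 of the loci were called higher in ECs in sham, beside 25% of all loci. The direction between the cell types in sham was thus the reverse of that at UUO-7. Without the PDGFR-β+ library of UUO-7 mouse 5 the count against UUO-2 was 21, and without that of R-UUO mouse 1 the count against R-UUO was 52. The latter library was singled out by its level in this region, so the count without it is a description.

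Summed over the region, with overlapping loci counted once, ECs had 1070 to 2600 CPM at UUO-7, 1290 to 2850 at UUO-2 and 3330 to 4300 in sham. PDGFR-β+ cells had 4480 to 11300 CPM at UUO-7, 475 to 919 at UUO-2 and 263 to 883 in sham. In R-UUO, the sums of PDGFR-β+ cells were 8140, 893, 910 and 362 CPM in mice 1, 2, 4 and 5, and those of ECs were 1360, 4440, 948 and 4070 CPM. Every PDGFR-β+ library of UUO-7 lay above every PDGFR-β+ library of sham and UUO-2, while R-UUO mouse 1 lay in the range of UUO-7 and the other 3 lay near the range of sham. The change within a cell type was not tested here.

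The 4 largest called shifts above 0 from sham by the naming rule were all in this region, namely miR-433-3p (8.01 ± 1.33), miR-134-5p (7.75 ± 1.42), miR-666-5p (7.29 ± 1.47) and miR-299b-5p (6.48 ± 1.42). The size of these fitted shifts depends on the prior count, because the PDGFR-β+ libraries of sham were at or near 0. miR-299b-5p lies on the opposite strand of miR-299a-3p and has the same counts at UUO-7, so the 2 names cannot be told apart. For example, miR-433-3p had at most 0.2654 CPM in the PDGFR-β+ libraries of sham and 7 to 12.17 CPM in the EC libraries of sham. At UUO-7 it had 10.71 to 17.66 CPM in PDGFR-β+ cells and 2.214 to 5.858 CPM in ECs. The more abundant miR-541-5p was at 299.9 to 438.1 CPM in ECs and 13.04 to 62.49 CPM in PDGFR-β+ cells of sham, and shifted by 5.91 ± 1.04 (adjusted p = 6.73e-05).
miR-433-3p: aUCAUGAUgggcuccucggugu
miR-134-5p: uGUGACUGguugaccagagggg

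**Figure D4:**
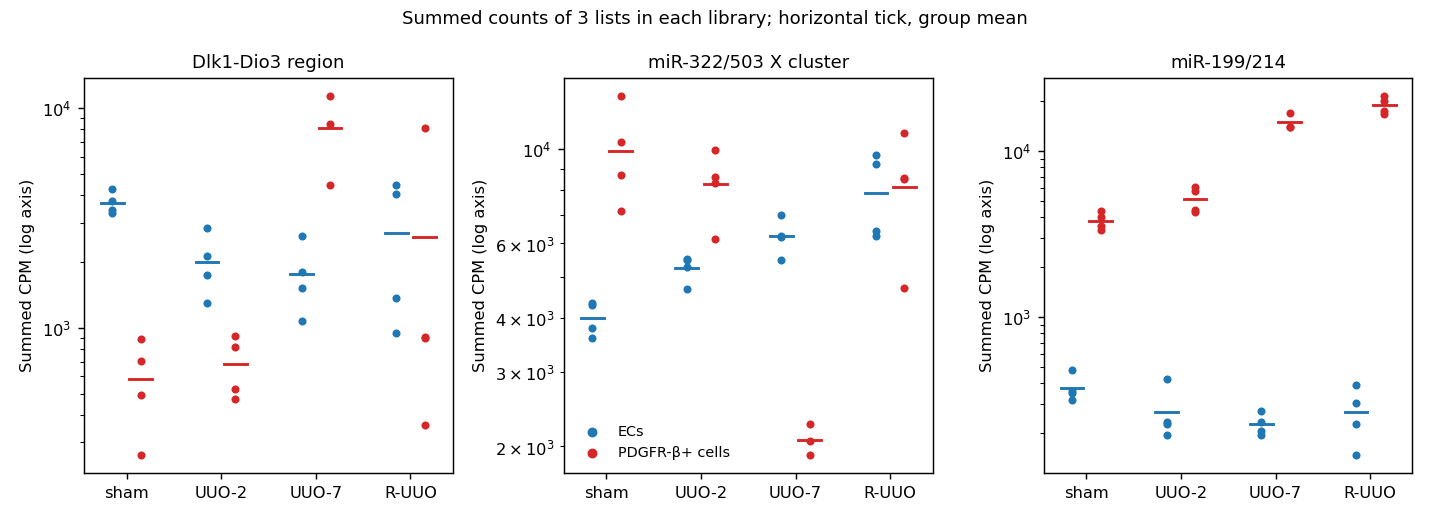
Summed CPM, on a log axis, of the Dlk1-Dio3 region, the X cluster of miR-322 and the miR-199 and miR-214 loci in each EC (blue) and PDGFR-β+ (red) library of the 4 conditions, with a tick at the group mean. At UUO-7 the PDGFR-β+ libraries hold 4480 to 11300 CPM of the first and 1910 to 2260 CPM of the second list, and 1 PDGFR-β+ library of R-UUO (8140 and 4710 CPM) stands apart from the other 3 in both.

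The X-linked cluster shifted the other way. Of 12 loci tested, 10 had a shift below 0 from sham (median -2.83), 9 from UUO-2 and 4 from R-UUO, beside 11.2%, 8.38% and 2.05% of all loci. In sham 8 were called higher in PDGFR-β+ cells, beside 20.9% of all loci, and the median was 1.20. The summed level was 7150 to 13300 CPM in PDGFR-β+ cells and 3600 to 4340 CPM in ECs of sham, against 1910 to 2260 and 5480 to 7010 CPM at UUO-7. The order of the cell types was thus reversed between sham and UUO-7 without overlap in either. R-UUO mouse 1 again had the value nearest to UUO-7 among the PDGFR-β+ libraries of R-UUO, at 4710 CPM beside 8510 to 10900 in the others. Without that library 9 loci had a shift below 0 from R-UUO. That count too is a description, since the library was singled out by its level in this cluster. miR-351-5p shifted by -2.89 ± 0.30 from sham (adjusted p = 3.80e-08) and by -1.65 ± 0.29 from R-UUO. miR-450a-5p at chrX:53048339-53048360 shifted by -3.46 ± 0.43 from sham, and miR-322-3p by -3.08 ± 0.40.

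miR-338-3p had no like return in R-UUO. Its level in PDGFR-β+ cells was 12.43 to 26.49 CPM at UUO-7 and 13.4 to 25.52 in R-UUO, against 146.5 to 214.3 in sham and 153.8 to 222.4 at UUO-2, and in ECs the range over the 4 conditions was 66.74 to 177.3 CPM. The shift from sham was -3.04 ± 0.33 (adjusted p = 5.30e-08), and from R-UUO it was not called (0.39).

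The miR-199 and miR-214 loci were higher in PDGFR-β+ cells in every condition, and the difference was larger at UUO-7 than in sham. Of 8 loci, some of which encode the same mature sequence, 6 shifted above 0 from sham (median 2.60) and 5 from UUO-2, beside 20.9% and 10.8% of all loci. The sum in PDGFR-β+ cells was 13900 to 16900 CPM at UUO-7 and 16600 to 21300 in R-UUO, against 3360 to 4350 in sham and 4270 to 6030 at UUO-2, while ECs stayed between 148 and 479 CPM. For miR-199a-3p on chromosome 1 the shift from sham was 2.66 ± 0.35 (adjusted p = 9.37e-07).

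miR-143 and miR-145 had values in the other order. Their sum in PDGFR-β+ cells was 244000 to 323000 CPM in sham and 75700 to 101000 CPM at UUO-7, and in ECs 7300 to 18100 and 6000 to 11800 CPM. The shift from sham was called at miR-145a-3p alone of the 4 loci (-1.56 ± 0.45, adjusted p = 0.00807), and at miR-143-3p it was -1.24 ± 0.52 (adjusted p = 0.0656). With library size alone no locus of the list was called for this shift, and with RLE size factors 2 were.

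miR-146b-5p and miR-21a-5p were closer between the cell types in sham, where the log2 difference was 1.23 and called for the former and 0.35 and not called for the latter. miR-146b-5p had 47.47 to 68.95 CPM in ECs and 107 to 155.5 CPM in PDGFR-β+ cells of sham, and 128.2 to 170 and 2883 to 5614 CPM at UUO-7, a shift of 3.66 ± 0.32 (adjusted p = 2.42e-09). miR-21a-5p had 880.7 to 1152 CPM in ECs and 1046 to 1706 CPM in PDGFR-β+ cells of sham, and 4463 to 6039 and 31393 to 39263 CPM at UUO-7, a shift of 2.42 ± 0.31 (adjusted p = 6.83e-07). In PDGFR-β+ cells of R-UUO, miR-146b-5p had 3517 to 5529 CPM and miR-21a-5p 30552 to 40409 CPM, which overlapped the range at UUO-7, and neither shift from R-UUO was called. In contrast, the difference of miR-146a-5p from sham was not called (0.56 ± 0.25, adjusted p = 0.0837), and from R-UUO it was -1.49 ± 0.25 (adjusted p = 0.00114). Of the 12 inflammation loci in this fit, 8 shifted above 0 from sham, beside 20.9% of all loci.

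miR-10b-5p turned from higher in PDGFR-β+ cells in sham (177504 to 231691 against 72187 to 125425 CPM) to higher in ECs at UUO-7, with a shift of -1.84 ± 0.38 (adjusted p = 0.000380). The UUO-7 side of this turn was not called with library size alone (-0.06) or with all 63 libraries in the fit (-0.60). miR-126a-3p shifted by -1.56 ± 0.33. Its level was 15436 to 18608 CPM in ECs of sham and 15575 to 18599 CPM at UUO-7, and in PDGFR-β+ cells 327.4 to 345.1 and 86.34 to 170.6 CPM, so the 2 groups of ECs overlapped and the 2 groups of PDGFR-β+ cells did not. Neither miR-126a locus was called for this shift with library size alone or with all 63 libraries in the fit. miR-139-5p was further from parity in sham, with 0 to 4.909 CPM in PDGFR-β+ cells and 325.4 to 408.8 CPM in ECs, and shifted by 1.80 ± 0.50 (adjusted p = 0.00530).

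**Figure D5:**
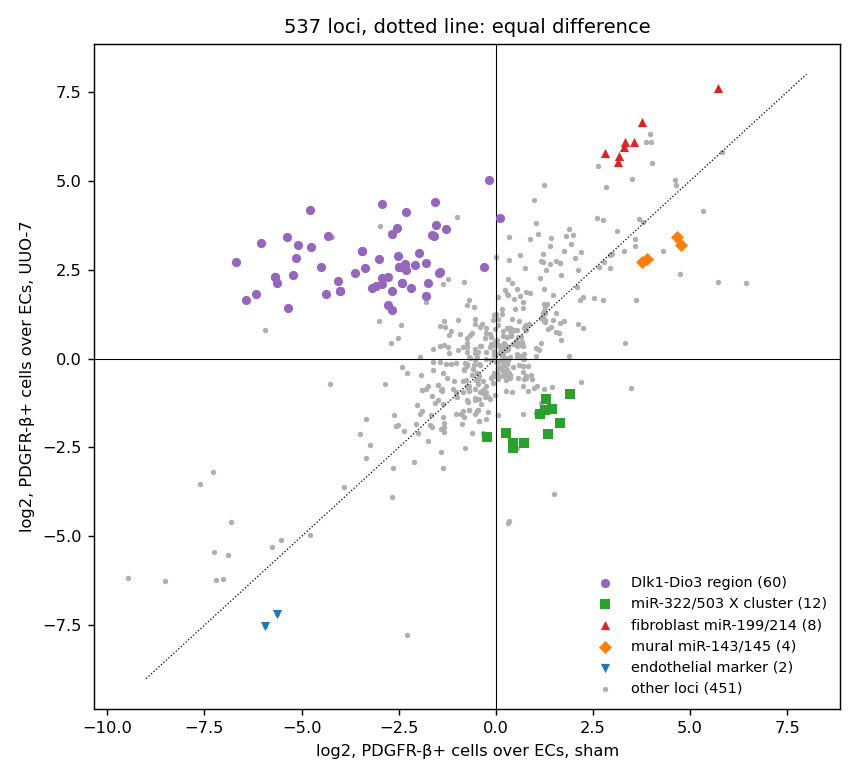
Log2 difference of PDGFR-β+ cells over ECs in sham and at UUO-7 for the 537 loci of the 31-library fit, with points on the dotted line where the difference is equal. The Dlk1-Dio3 loci (60) lie mostly at negative values in sham (median -2.85) and positive values at UUO-7 (median 2.58), and the X cluster (12) lies at the opposite corner (medians 1.20 and -1.95).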

How the data were processed

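Small RNA was sequenced from cells sorted from digested mouse kidney. The authors used Trim Galore 0.4.1 and cutadapt 1.1 for trimming, and ShortStack (Bowtie) with GRCm38 and miRBase 22 for alignment. The deposited values are raw read counts, 1 row for each place in the genome that encodes a mature miRNA. The strand counted and the placement of reads that match several loci are not given in the sources used here. Samples were grouped by GEO's labels, with the mouse number as replicate.

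These were tested by edgeR 4.0.16 under R 4.3.3 (filterByExpr, TMM, glmQLFit and glmQLFTest, Benjamini-Hochberg adjustment, FDR under 0.05 and fold change over 1.5) and with DESeq2 1.42.0 as an alternative. The UUO-7 fit used 7 libraries, and shifts were contrasts in a fit of 31 libraries. Total counts of those 31 ranged from 1905053 to 10819385. Replicates were separate mice, and each of the 9 pairs of replicates at UUO-7 differed by more than sampling noise, with a chi-square per degree of freedom of 49.3 or more. EC and PDGFR-β+ libraries with the same number come from the same mouse, so the mouse was tried as a block. The deviations of the 2 libraries of a mouse correlated at -0.0772, -0.245 and 0.0743 over 442 loci. On simulated counts, the UUO-7 comparison called 192 of 192 loci given a log2 difference of 2 and 7 loci given none, of 429 loci tested. The shift from sham called 140 of 193. All simulated loci had the same dispersion, about as many were raised as lowered, and no mouse effect was added. The simulation therefore does not bear on the choice of scaling or on smaller differences.

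Named loci are, in each direction, the 12 called loci with the largest fold change whose groups do not overlap and whose higher group has at least 10 CPM, counting loci of the same name or site once, then the 5 most abundant loci per cell type, the endothelial, mural and miR-199/214 lists, and the 4 largest shifts from sham in each direction under the same rules, with overlap judged at UUO-7. Members of other lists are examples. The loci and lists were chosen with earlier results of these data known. Alternatives were DESeq2, the likelihood ratio test, library size alone, RLE size factors, no filter, the mouse block, loci summed by name, overlapping loci counted once, all 63 libraries, and each library left out. List counts under the block and leave-one-out, and shifts in the fit of 63 libraries, were added after seeing the data. The level of 3 counts reflects counting error only.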

Additional observations from a re-analysis of the deposited data

Results flagged for a closer look

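Among the 44 named loci, 2 had an EC library of UUO-7 far from the other 3 (Dixon's test at 95%), and chance alone gives about 1 in 20. miR-139-3p had 35.78 CPM in mouse 3 against 19.53 to 20.65 CPM, and miR-199a-5p at chr9:21496537-21496559 had 0.1692 CPM in mouse 4 against 0, which is 1 read.

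The shift from sham was called at 29 of the 44 loci. This count is a description, since 8 of the loci were chosen for the size of their called shift, and over all loci 20.9% shifted above 0 and 11.2% below. The shift was above 0 for miR-433-3p (8.01), miR-134-5p (7.75), miR-666-5p (7.29) and miR-299b-5p (6.48) of the Dlk1-Dio3 region. It was also above 0 for miR-139-3p (4.10) and miR-139-5p (1.80), miR-214-3p (2.96) and miR-214-5p (2.38), miR-125b-1-3p (2.77) and miR-148a-3p (1.55). Of the miR-199 loci it was 2.89 for miR-199a-5p and 2.66 for miR-199a-3p on chromosome 1, 2.78 for miR-199b-3p and 2.53 for miR-199a-3p on chromosome 9, and the 3p loci encode the same mature sequence.

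The shift from sham was below 0 for miR-3065-3p (-4.92) and miR-3065-5p (-3.04), and for miR-450a-5p (-3.46), miR-322-3p (-3.08) and miR-322-5p (-2.96) of the X cluster. It was below 0 for miR-10b-5p (-1.84), miR-672-5p (-1.72), miR-27b-3p (-1.28), miR-10a-5p (-1.01), let-7f-5p of chromosome X (-0.68) and miR-145a-3p (-1.56). For miR-126 it was -1.57 at miR-126a-5p and miR-126b-3p and -1.56 at miR-126a-3p and miR-126b-5p, which overlap on opposite strands and had nearly the same counts.

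The shift from R-UUO was called at 5 named loci, namely miR-666-5p (4.72), miR-672-5p (-2.42), miR-322-3p (-2.17), miR-322-5p (-1.83) and miR-146a-5p (-1.49). Without the PDGFR-β+ library of R-UUO mouse 1, 13 named loci were called, these 5 included. With the mouse as a block miR-666-5p (5.62) and miR-672-5p (-1.95) were not called, and with all 63 libraries in the fit only miR-146a-5p (-1.36) and miR-322-3p (-2.02) of the 44 were.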

How the results depend on the processing

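Of the 261 calls at UUO-7, 259 were kept with RLE size factors, 230 with the mouse as a block, 200 with library size alone, where 16 turned sign, and 233 to 245 with 1 library left out. The counts by mouse block were 133 and 103, and no named locus lost its call between the cell types at UUO-7. With library size alone the UUO-7 calls were 245 and 51, the shifts from sham 213 and 20, those from UUO-2 172 and 17 and those below 0 from R-UUO 6, and let-7f-5p of chromosome X turned to 0.2402. Shifts from R-UUO, 2 above and 11 below 0, were 9 and 26 with DESeq2, 8 and 20 with the likelihood ratio test, 35 and 22 without the filter and 0 and 5 with the replicate block. Those below 0 were 29 with loci summed by name and 20 with overlapping loci counted once. Shifts above 0 from UUO-2 were 38 with loci summed by name. With all 63 libraries in the fit, added after seeing the data, shifts below 0 were 33 from sham and 22 from UUO-2, and those from R-UUO were 0 and 3. Leaving out 1 library gave 0 to 59 shifts above 0 and 8 to 46 below 0 from R-UUO, and 38 to 72 above 0 from UUO-2, where 38 came without the PDGFR-β+ library of UUO-7 mouse 5. The cause of these differences was not tested. Depth limits loci near 1 CPM, and 705 loci with counts were not tested.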
